A study of Mus musculus with 25 samples.

Results

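The 10 genes described here encode matrix proteins of connective tissue and 1 receptor of the cells that make them. They are Dcn (decorin), Bgn (biglycan), Fmod (fibromodulin), Lum (lumican), Prelp (prolargin), Ogn (osteoglycin) and Podn (podocan), which are small leucine-rich proteoglycans, together with Dpt (dermatopontin), Mfap5 (a microfibril protein) and Pdgfra (a receptor for platelet-derived growth factors). They were taken by name from the 20870 genes of the deposited table, and all 10 had a row. All 10 passed the filter on low values in the tissue and stage set, and 9 did so in the E12.5 set, where Prelp was too low to be tested.

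Small leucine-rich proteoglycans are secreted proteins built of leucine-rich repeats, most of which carry chondroitin, dermatan or keratan sulfate chains. They bind collagen fibrils, set fibril width and spacing, and hold growth factors such as transforming growth factor beta in the matrix. In the heart they are products mainly of fibroblasts, and the sinoatrial node (SAN), the pacemaker region of the heart, is known for a dense collagen matrix between its myocytes.

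Tissue was cut from frozen heart sections with a laser, and total RNA was amplified and sequenced. The tissue and stage set held 18 libraries from mice of mixed background with an Hcn4-GFP reporter, with 3 each from SAN and right atrium (RA) at embryonic day 14.5 (E14.5) and postnatal days 4 (P4) and 14 (P14). The E12.5 set held 7 SAN libraries from Hcn4-GFP embryos homozygous for a floxed Isl1 allele (Isl1 fl/fl), all of which were exposed to tamoxifen at E10.5. Of these, 4 were labelled CreNeg and 3 CrePos, and the CrePos embryos also carried CAG-Cre/Esr1, a tamoxifen-activated Cre under a promoter active in most cell types, so its activity was not limited to the node. Which animal each library came from is not in the labels, and the p-values therefore rest on library-to-library spread, which may be technical.

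Depth was 5101711 to 17997497 reads per library in the first set and 45298052 to 88020474 in the second. Levels are given as CPM, which here are the deposited normalized values divided by 24.3, and differences are on the log2(CPM + 1) scale. They were not rescaled to each library's total, so the totals differ between libraries. Relative to the total that full scaling to library size would give, they ran from 0.992 to 1.22 in the first set. In the second set they ran from 0.632 to 0.890. Hcn4, the pacemaker channel gene, averaged 1235 to 2580 CPM in the SAN groups and 8.50 to 23.6 CPM in the RA groups, and Nppa, an atrial hormone gene, 0.887 to 15.5 CPM and 364 to 1228 CPM. Myl2, a gene of ventricular myocytes, reached 829 CPM in the first SAN library at E14.5 and 1032 CPM in CrePos replicate 2, against at most 24.5 CPM in every other library. RA P4 replicate 1 lay below its group mean for 9 of the 10 genes, with a median deviation of −0.70 on the log2 scale. SAN P14 replicate 3 was likewise above its group mean for only 1 of the 10 (median −0.16). SAN P4 replicate 1 was above for 2 (median −0.38), and 2 genes, Dpt and Mfap5, lay more than 1 below.

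Between E14.5 and P14 the matrix genes rose in both tissues, and the main exceptions were Fmod and Pdgfra. In SAN 8 of the 10 genes were higher at P14 than at E14.5 and none was lower (limma, Benjamini-Hochberg adjusted p under 0.05), where 9.74% of all 17568 genes tested were called higher and 14.5% lower. In RA 9 were higher and 1, Fmod, was lower, where 5.99% of all genes were called higher and 16.7% lower. The median log2 difference over the 10 genes was 3.31 in SAN and 2.38 in RA, against −0.18 and −0.37 over all genes. In bulk tissue, a change in the number of fibroblasts and a change in RNA per fibroblast cannot be told apart. Fibroblast markers outside the 10 genes were higher at P14 for 15 of 20 in SAN, where their sum went from 4431 to 7091 CPM to 20365 to 24306 CPM. In RA 13 were higher and 1 lower, with sums of 4366 to 4908 CPM and 9975 to 12519 CPM. Macrophage markers were higher for 9 of 12 in SAN (79.2 to 121 CPM against 579 to 712 CPM) and 2 of 12 in RA, and glia markers for 6 of 9 and 3 of 9. By limma, epicardial markers were higher for 4 of 12 in SAN and lower for 4 of 12 in RA. In either direction edgeR called 1 epicardial marker in SAN and 0 in RA, and DESeq2 called 1 in each. The part of all these markers in the rise of the 10 genes was not tested.

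**Figure D1:**
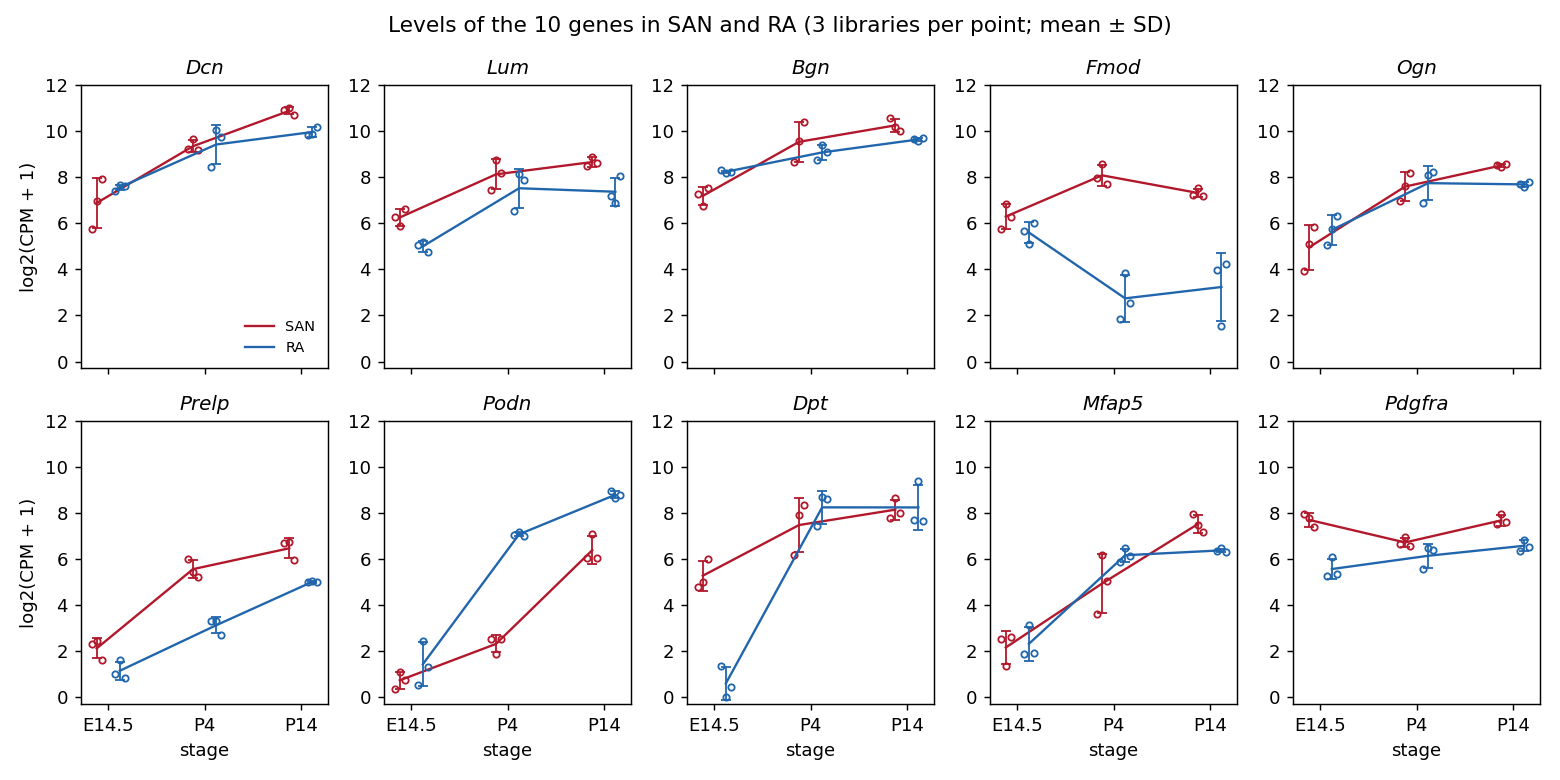
Level of each of the 10 genes at 3 stages in SAN (red) and RA (blue), as log2(CPM + 1). Open circles are libraries (3 per point), and lines join group means with bars of ± 1 SD. Fmod parts between the tissues after E14.5, Podn is higher in RA at P4 and P14, and Dpt is apart at E14.5 and overlaps at P4 and P14.

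More rises were called in SAN before P4 than after. From E14.5 to P4, 9 genes rose in SAN and 1, Pdgfra, fell (3.85% of all genes were called higher and 4.39% lower). From P4 to P14 only 4 rose, namely Dcn, Podn, Mfap5 and Pdgfra (2.68% higher and 2.91% lower over all genes). In RA 7 genes rose from E14.5 to P4 and Fmod fell (3.23% higher and 3.56% lower over all genes). From P4 to P14 Prelp and Podn rose in RA and none of the 10 fell (1.34% higher and 5.42% lower over all genes). The last step of Dcn in SAN was lost without SAN P14 replicate 1 or 2 (adjusted p = 0.058 and 0.055), and that of Podn in RA without RA P14 replicate 1 (adjusted p = 0.060). Without SAN P4 replicate 3 the last step in SAN also held Bgn (1.14, adjusted p = 0.0087). Without RA P4 replicate 1 the first step in RA gave larger rises for Dcn (2.34 in place of 1.86), Lum (3.01 in place of 2.52), Ogn (2.45 in place of 2.03) and Dpt (8.05 in place of 7.64). Without SAN E14.5 replicate 1 the first step in SAN gave smaller rises for Dcn (1.90 in place of 2.46) and Ogn (2.13 in place of 2.64).

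Decorin and biglycan, the closest relatives among the 10, carry chondroitin or dermatan sulfate and bind type I collagen. Dcn stood at 53.0, 125 and 240 CPM in the 3 SAN libraries at E14.5, at 591, 799 and 575 CPM at P4 and at 1912, 2070 and 1679 CPM at P14. The RA libraries held 170, 200 and 194 CPM, then at 350, 1044 and 866 CPM, and then at 907, 925 and 1168 CPM. The 3 stages did not overlap in SAN, whereas P4 and P14 overlapped in RA. Dcn rose by 4.00 ± 0.38 (SE, adjusted p = 1.1e-07) from E14.5 to P14 in SAN and by 2.40 ± 0.38 (adjusted p = 6.9e-05) in RA. Without SAN E14.5 replicate 1 the rise in SAN was 3.43. At P14 every SAN library was above every RA library, but the difference of 0.92 ± 0.38 did not pass (adjusted p = 0.21). At E14.5 the SAN minus RA difference of −0.68 did not pass, and it depended on single SAN libraries, with −0.11 (adjusted p = 0.96) without replicate 1 and −1.19 (adjusted p = 0.049) without replicate 3.

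Bgn stood at 153, 106 and 186 CPM in SAN at E14.5, at 399, 755 and 1340 CPM at P4 and at 1498, 1155 and 1033 CPM at P14. RA levels were 313, 290 and 297 CPM, at 424, 663 and 552 CPM, and at 809, 748 and 830 CPM. It was lower in SAN before birth, by −1.05 ± 0.29 (adjusted p = 0.034), and not called at P4 (0.46 ± 0.29, adjusted p = 0.44, but 0.90 and 0.037 without SAN P4 replicate 1) or P14 (0.61 ± 0.29, adjusted p = 0.31). The rise from E14.5 to P14 was larger in SAN than in RA, 3.06 against 1.40, and the difference of 1.66 ± 0.41 had an adjusted p of 0.034. That call was lost when any E14.5 or P14 library except replicate 3 of SAN was left out, with the highest adjusted p, 0.10, when replicate 2 of SAN at E14.5 was. The E14.5 call was lost without any E14.5 library except that same replicate 3 (−0.83 to −1.09, adjusted p between 0.080 and 0.21).

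Fibromodulin, lumican and prolargin form a second class of the family; fibromodulin and lumican carry keratan sulfate and compete for sites on collagen, and prolargin links basement membrane to collagen. Fmod and Prelp are neighbours in the genome, in the order Optc, Prelp, Fmod in the RefSeq annotation of assembly GRCm38.p6, so their start regions are shown for these 2 genes that were both higher in SAN after birth. The sequences run 5′ to 3′ in the direction of the gene, from 250 bases before to 50 bases after the start, at chr1:134037004-134037303 (plus strand) for Fmod and chr1:133921352-133921651 (minus strand) for Prelp. Capitals mark matches on either strand to the motifs searched. These were the TATA box of core promoters (TATAAA), the GC box bound by Sp factors (GGGCGG), the site of AP-1 factors (TGANTCA), the site of TEAD factors (GGAATG), the E-box bound by helix-loop-helix factors (CANNTG) and the box named CCAAT.
Fmod: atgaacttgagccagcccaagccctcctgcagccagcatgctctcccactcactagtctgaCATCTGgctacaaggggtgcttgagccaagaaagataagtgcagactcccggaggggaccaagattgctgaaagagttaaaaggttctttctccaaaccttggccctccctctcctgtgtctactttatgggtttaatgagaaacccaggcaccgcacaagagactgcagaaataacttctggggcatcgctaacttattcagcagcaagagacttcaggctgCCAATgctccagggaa
Prelp: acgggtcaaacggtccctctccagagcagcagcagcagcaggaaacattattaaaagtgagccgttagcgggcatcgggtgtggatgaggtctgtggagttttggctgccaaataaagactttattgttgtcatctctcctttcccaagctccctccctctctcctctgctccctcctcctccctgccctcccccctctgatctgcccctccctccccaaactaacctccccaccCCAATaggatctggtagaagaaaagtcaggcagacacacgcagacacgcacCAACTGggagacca
Each of these 2 windows held a CCAAT match, as did 37.4% of 32851 promoters of that length, and an E-box match, as did 72.3%. Their GC content was 51.0% and 55.3%, near the median of 52.7% over all promoters. Promoters were found for 7 of the 10 genes in the RefSeq table.

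Fmod set the tissues apart after birth. In SAN it stood at 53.1, 114 and 76.0 CPM at E14.5, at 251, 379 and 205 CPM at P4 and at 151, 181 and 143 CPM at P14. RA libraries had 49.8, 33.7 and 63.6 CPM at E14.5, at 2.64, 13.3 and 4.73 CPM at P4 and at 14.6, 1.87 and 17.6 CPM at P14. The tissues overlapped at E14.5, and afterwards the lowest SAN library was far above the highest RA library. The SAN minus RA difference was 0.69 ± 0.53 (adjusted p = 0.61) at E14.5, 5.34 ± 0.53 (adjusted p = 5.6e-07) at P4 and 4.08 ± 0.53 (adjusted p = 3.5e-05) at P14.

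After E14.5 Fmod moved down in RA and up in SAN. It fell in RA by 2.86 ± 0.53 on the log2 scale from E14.5 to P4 (adjusted p = 0.0014), a fall of 2.42 without RA P4 replicate 1. Over the same interval it rose in SAN by 1.79 ± 0.53 (adjusted p = 0.040), a call that was lost without any SAN library of E14.5, SAN P4 replicate 1 or 2, RA E14.5 replicate 1 or SAN P14 replicate 3. The highest of these adjusted p, 0.17, came when replicate 1 of SAN at E14.5 was left out. From E14.5 to P14 the change was 1.02 ± 0.53 in SAN, which did not pass (adjusted p = 0.18), and −2.37 ± 0.53 in RA (adjusted p = 0.0025). The difference between these changes was 3.39 ± 0.75 (adjusted p = 0.020). Without SAN E14.5 replicate 1 that difference was 3.12 (adjusted p = 0.063), and with all libraries it did not pass in edgeR (adjusted p = 0.069).

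Prelp was low before birth and rose in both tissues. It stood at 3.90, 4.44 and 2.11 CPM in SAN at E14.5, at 63.3, 42.7 and 36.4 CPM at P4 and at 102, 106 and 61.5 CPM at P14. The RA libraries held 1.01, 2.03 and 0.802 CPM, at 9.05, 9.01 and 5.60 CPM, and at 30.7, 32.1 and 31.0 CPM. The SAN libraries were above the RA libraries at every stage. The mean difference over the 3 stages was 1.62 ± 0.22 (adjusted p = 1.5e-05). At E14.5 the difference of 0.97 ± 0.38 did not pass (adjusted p = 0.17), and the closest libraries were 2.11 CPM in SAN and 2.03 CPM in RA. It was 2.44 ± 0.38 at P4 (adjusted p = 0.00018) and 1.46 ± 0.38 at P14 (adjusted p = 0.027). The P14 call was lost without any P14 library except SAN replicate 3, with adjusted p reaching 0.11 when SAN replicate 1 or 2 of that stage was left out.

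Lum stood at 75.3, 58.6 and 95.9 CPM in SAN at E14.5, at 174, 426 and 288 CPM at P4 and at 353, 467 and 394 CPM at P14. RA levels were 32.0, 35.9 and 25.7 CPM, at 92.4, 279 and 235 CPM, and at 143, 116 and 265 CPM. It was higher in SAN at E14.5 and P14 with no overlap and overlapped at P4. The mean difference was 1.05 ± 0.21 (adjusted p = 0.0013). The calls of single stages were near the threshold, with 1.25 ± 0.36 before birth (adjusted p = 0.043) and 1.29 ± 0.36 in the last stage (adjusted p = 0.041). Leaving out any E14.5 library, RA P14 replicate 1 or SAN P14 replicate 1 or 3 ended the E14.5 call (adjusted p at most 0.16). The P14 call ended without any P14 library except RA replicate 3 (at most 0.23) and without replicate 1 of either tissue at E14.5. The rise from E14.5 to P14 was 2.40 in SAN and 2.37 in RA, and the difference of 0.04 ± 0.51 did not pass.

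Osteoglycin, also called mimecan, is a further class of the family that takes part in collagen fibril formation. Ogn stood at 14.0, 33.0 and 56.3 CPM in SAN at E14.5, at 123, 195 and 293 CPM at P4 and at 364, 350 and 376 CPM at P14. The RA libraries held 32.3, 53.1 and 79.3 CPM, at 117, 274 and 300 CPM, and at 208, 188 and 220 CPM. It rose from E14.5 to P14 by 3.56 ± 0.41 in SAN (adjusted p = 1.7e-06) and by 1.97 ± 0.41 in RA (adjusted p = 0.0011). Without SAN E14.5 replicate 1 the rise in SAN was 3.04. The SAN libraries were all above the RA libraries at P14, but the difference of 0.82 ± 0.41 did not pass (adjusted p = 0.34). Cenpp, a kinetochore gene, spans Ogn in the RefSeq annotation and stood at 2.74 to 18.7 CPM over all libraries, and the way reads were counted at such overlaps is not given in the sources used here.

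Podocan, first described in the kidney and known to restrain smooth muscle growth, was the one gene of the 10 that passed as higher in RA at P4 and at P14. A start region of Podn is shown because the tissue difference of this gene ran opposite to that of Fmod and Prelp. RefSeq lists 2 starts for Podn, and the one further upstream is printed. The window is chr4:108031905-108032204 (minus strand) of GRCm38.p6, with motif matches in capitals as above.
Podn: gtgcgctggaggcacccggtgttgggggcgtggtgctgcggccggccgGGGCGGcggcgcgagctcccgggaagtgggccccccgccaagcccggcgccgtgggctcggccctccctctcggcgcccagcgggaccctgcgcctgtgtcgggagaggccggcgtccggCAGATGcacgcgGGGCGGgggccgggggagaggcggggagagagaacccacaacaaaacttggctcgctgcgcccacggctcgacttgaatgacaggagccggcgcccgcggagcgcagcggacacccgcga
This window was rich in GC, at 77.0% against a 90th percentile of 69.7% over all promoters. It held 2 GC boxes, as at least 2 were found in 19.5% of promoters, and 1 E-box. The window of the other Podn start, chr4:108030937-108031236, had 63% GC, no GC box and 3 E-boxes, as at least 3 were found in 17.6% of promoters. Which start was used in these tissues cannot be told from levels per gene.

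Podn stood at 0.451, 4.42 and 1.51 CPM in RA at E14.5, at 131, 142 and 128 CPM at P4 and at 493, 398 and 437 CPM at P14. The SAN libraries held 0.289, 1.11 and 0.702 CPM, at 4.77, 2.71 and 4.78 CPM, and at 64.3, 134 and 65.1 CPM. Both tissues began near the lowest measurable level, both had risen by P4, RA to a far higher level, and the SAN libraries at P14 spanned 64.3 to 134 CPM, partly overlapping RA at P4. The SAN minus RA difference was −0.70 ± 0.41 at E14.5 (adjusted p = 0.44), −4.76 ± 0.41 at P4 (adjusted p = 6.0e-08) and −2.41 ± 0.41 at P14 (adjusted p = 0.00074).

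By stage, Podn rose in RA by 5.64 ± 0.41 to P4 and by a further 1.72 ± 0.41 to P14. In SAN the first step was 1.58 ± 0.41 (adjusted p = 0.019) and the second 4.07 ± 0.41 (adjusted p = 4.6e-06). The 1 added to CPM narrows steps that start near 0. As ratios of mean CPM the 2 steps were 5.83 and 21.4 in SAN, and 62.8 and 3.31 in RA. The first SAN step was lost without SAN E14.5 replicate 1 (1.39, adjusted p = 0.084) and without SAN P4 replicate 1 (adjusted p = 0.057). RA P4 and SAN P14 differed by 0.69 ± 0.41, which did not pass. Summed markers of cardiac myocytes (12 genes, none at 0 throughout) were 84473 to 101708 CPM in RA and 65117 to 77717 CPM in SAN at P4, and 115441 to 121105 CPM against 73528 to 86335 CPM at P14, and their part in the Podn difference was not tested.

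Dermatopontin binds decorin and speeds the assembly of collagen fibrils. Its start region is shown because it was the gene that differed most between the tissues before birth; the window is chr1:164796413-164796712 (plus strand) of GRCm38.p6, with motif matches in capitals as above.
Dpt: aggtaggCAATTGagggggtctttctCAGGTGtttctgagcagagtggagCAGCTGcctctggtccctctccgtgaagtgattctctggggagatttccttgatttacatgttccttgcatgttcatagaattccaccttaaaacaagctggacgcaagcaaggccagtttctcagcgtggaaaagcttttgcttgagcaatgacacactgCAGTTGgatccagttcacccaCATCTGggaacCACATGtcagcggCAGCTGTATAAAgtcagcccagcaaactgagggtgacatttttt
The window held 7 E-box matches, and at least as many were found in 0.177% of promoters. A TATAAA match began at base 13 after the start, directly beside the last E-box, and 13.6% of promoters held such a match anywhere in the window.

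Dpt was present in SAN and nearly absent from RA at E14.5, and the tissues overlapped later. It stood at 27.0, 31.2 and 63.3 CPM in SAN and at 1.58, 0 and 0.356 CPM in RA at E14.5, where 3 reads, the most that a count of 0 allows, correspond to 0.267 to 0.553 CPM. At P4 it stood at 70.9, 238 and 326 CPM in SAN and at 171, 408 and 393 CPM in RA, and at P14 at 221, 395 and 254 CPM and at 208, 659 and 199 CPM. The SAN minus RA difference was 4.67 ± 0.52 at E14.5 (adjusted p = 4.1e-06), −0.77 ± 0.52 at P4 (adjusted p = 0.48) and −0.10 ± 0.52 at P14 (adjusted p = 0.97). Without SAN E14.5 replicate 1 the first of these was 4.91 (adjusted p = 2.1e-05).

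The rise of Dpt from E14.5 to P14 was smaller in SAN (2.87 ± 0.52) than in RA (7.64 ± 0.52). The difference of −4.77 ± 0.73 passed (adjusted p = 0.00099) and was −5.00 without SAN E14.5 replicate 1. The step to P4 in SAN lost its call without SAN E14.5 replicate 1 or SAN P4 replicate 2 (adjusted p = 0.058 and 0.057). Markers of other cell types also differed at E14.5. Of the 2 adipocyte markers with a row, Fabp4 was higher in SAN, and their sum was 24.3 to 51.6 CPM in SAN and 0.553 to 7.13 CPM in RA, without overlap as for Dpt. Epicardial and mesothelial markers (3 of 12 lower in SAN, none higher) summed to 28.4 to 332 CPM in SAN and 460 to 545 CPM in RA, and endothelial markers (9 of 12 lower) to 651 to 1100 CPM and 2257 to 2888 CPM. Cartilage and tendon markers (1 of 9 higher and 1 lower) summed to 68.1 to 82.1 CPM in SAN, with Acan and Matn3 at 0, and 123 to 232 CPM in RA. Of the smooth muscle and pericyte markers 1 was higher and 1 lower, and of the macrophage markers 1 was lower, with overlapping sums. Fibroblast markers other than the 10 genes summed to 4431 to 7091 CPM in SAN and 4366 to 4908 CPM in RA at that stage, with Cilp at 0 in all libraries of both groups and Lamc3 at 0 in SAN. Their part in the Dpt difference was not tested.

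Mfap5 binds fibrillin in the microfibrils that scaffold elastic fibres. It stood at 4.77, 1.54 and 5.12 CPM in SAN at E14.5, at 11.1, 71.1 and 31.7 CPM at P4 and at 244, 177 and 143 CPM at P14. RA libraries had 2.71, 7.92 and 2.76 CPM, at 58.2, 87.7 and 69.1 CPM, and at 80.3, 87.3 and 78.7 CPM. The RA libraries overlapped between P4 and P14, while SAN was spread widely at P4 and rose again. From P4 to P14 the change was 2.59 ± 0.49 in SAN (adjusted p = 0.0030) and 0.21 ± 0.49 in RA (adjusted p = 0.85). The SAN minus RA difference was −1.23 ± 0.49 at P4 (adjusted p = 0.16, or 0.024 without SAN P4 replicate 2) and 1.15 ± 0.49 at P14 (adjusted p = 0.23), and neither passed with all libraries. Fitted on the compared groups alone, both SAN steps lost their calls (adjusted p = 0.077 and 0.15).

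Pdgfra encodes the receptor that binds platelet-derived growth factors A and C and marks fibroblasts and embryonic mesenchyme. It stood at 245, 220 and 165 CPM in SAN at E14.5, at 98.2, 123 and 94.2 CPM at P4 and at 181, 244 and 191 CPM at P14. RA levels were 37.9, 66.5 and 39.5 CPM, at 46.0, 87.7 and 83.3 CPM, and at 81.0, 114 and 91.6 CPM. The SAN libraries were above the RA libraries at every stage. The SAN minus RA difference was 2.14 ± 0.26 at E14.5 (adjusted p = 1.3e-05), 0.58 ± 0.26 at P4 (adjusted p = 0.23) and 1.10 ± 0.26 at P14 (adjusted p = 0.014).

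With stage, Pdgfra in SAN went down and then up. In SAN it fell by 0.98 ± 0.26 on the log2 scale to P4 (adjusted p = 0.022), rose by 0.96 ± 0.26 to P14 (adjusted p = 0.033) and ended at a difference of −0.02 from E14.5. The fall was lost without SAN E14.5 replicate 1 or 2 or SAN P4 replicate 1 or 3, and the rise without SAN P4 replicate 1 or 3 or any SAN P14 library. In both cases the highest adjusted p was 0.11. In RA it rose by 1.01 ± 0.26 from E14.5 to P14 (adjusted p = 0.0070), and scaled on sarcomere genes that rise was 0.39 (adjusted p = 0.26). The P14 tissue difference was lost without RA P14 replicate 1 (adjusted p = 0.077) and without SAN P14 replicate 2 (adjusted p = 0.071).

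Across the comparison of the tissues, 5 of the 10 genes were higher in SAN over the mean of the 3 stages (Lum, Fmod, Prelp, Dpt and Pdgfra) and 1 was higher in RA (Podn), where 6.11% of all genes were called higher and 5.36% lower. At E14.5, 3 were higher in SAN and 1 lower, with 2.24% of all genes called higher and 3.09% lower. At P4 the counts were 2 and 1, with 2.97% and 2.99% of all genes, and at P14 they were 4 and 1, with 3.21% and 1.34%. The libraries of the tissues did not overlap for 5 of the 10 genes at E14.5, 4 at P4 and 9 at P14, where 26.6%, 18.5% and 19.7% of all genes did not overlap. The median difference of the 10 genes was 0.27, 0.19 and 1.01, against −0.07, −0.07 and 0.10 over all genes. Scaling to equal upper quartiles put the P14 median over all genes at −0.04, and Fmod and Pdgfra were then called higher, while Lum and Prelp did not pass (adjusted p = 0.071 and 0.055). Without RA P4 replicate 1 the P4 difference of Fmod was 4.90. Those of Dcn, Lum, Ogn, Dpt and Pdgfra, which did not pass with or without it, were −0.55, 0.12, −0.58, −1.18 and 0.29. These values leave out the low library of RA only, and SAN P4 replicate 1 was low as well. Fibroblast markers outside the 10 genes summed to 9745 CPM in RA P4 replicate 1, against 18989 and 17593 CPM in replicates 2 and 3. In SAN at P4 they summed to 8184 CPM in replicate 1, against 17294 and 19810 CPM.

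**Figure D2:**
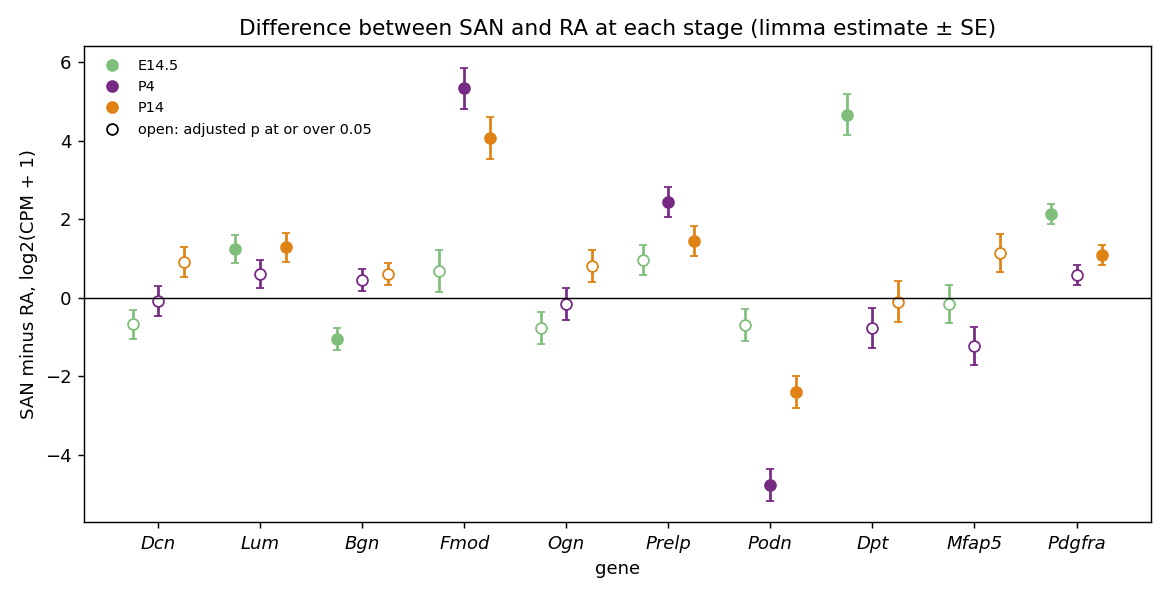
SAN minus RA difference of each gene on the log2(CPM + 1) scale at E14.5 (green), P4 (purple) and P14 (orange), as the limma estimate ± SE from 3 libraries per group. Filled points have an adjusted p under 0.05. Fmod reaches 5.34 at P4, Podn −4.76 at P4 and Dpt 4.67 at E14.5.

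At P14 markers of several cell types also differed between the tissues. Fibroblast markers outside the 10 genes were higher for 4 of 20 and lower for none, and their sum was 20365 to 24306 CPM in SAN and 9975 to 12519 CPM in RA. Of 11 markers of smooth muscle and pericytes, 5 passed as higher (3 with equal upper quartiles), with sums of 3377 to 4068 CPM and 1038 to 1401 CPM, and no gene of these 2 lists was at 0 throughout a group. Glia markers were higher for 5 of 9 and macrophage markers for 2 of 12 (579 to 712 CPM against at most 303 CPM). Endothelial markers were lower for 3 of 12 (1378 to 1462 CPM against 2268 to 2686 CPM), and cardiac myocyte markers were lower for 4 of 12 and higher for 1. These counts are by limma. In either direction edgeR called 1 fibroblast, 2 smooth muscle and pericyte, 1 glia, 1 macrophage, 3 endothelial and 6 cardiac myocyte markers. For the same lists DESeq2 called 4, 3, 2, 2, 3 and 7. Their part in the higher P14 levels of the matrix genes in SAN was not tested. Podn was lower in SAN, and Dpt overlapped, in the same libraries.

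The change from E14.5 to P14 differed between the tissues for 3 of the 10 genes, larger in SAN for Fmod and Bgn and smaller for Dpt, where 1.64% of all genes were called larger and 0.632% smaller. For the other 7 the difference lay between −1.71 ± 0.58 (Podn, adjusted p = 0.13) and 1.60 ± 0.53 (Dcn, adjusted p = 0.12). The Dcn difference was 1.03 (adjusted p = 0.32) without SAN E14.5 replicate 1 and 2.11 (adjusted p = 0.019) without SAN E14.5 replicate 3. That of Ogn was 1.59 with all libraries and 1.07 (adjusted p = 0.41) without SAN E14.5 replicate 1. That of Podn passed without RA E14.5 replicate 2 (−2.21, adjusted p = 0.041). The median of all genes for this difference was 0.18, and it was 0.03 with equal upper quartiles and 0.56 scaled on sarcomere genes. In these 2 scalings the Fmod difference stayed above 0 and the Dpt difference below 0, and both passed. In edgeR only Dpt of the 10 genes passed.

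**Figure D3:**
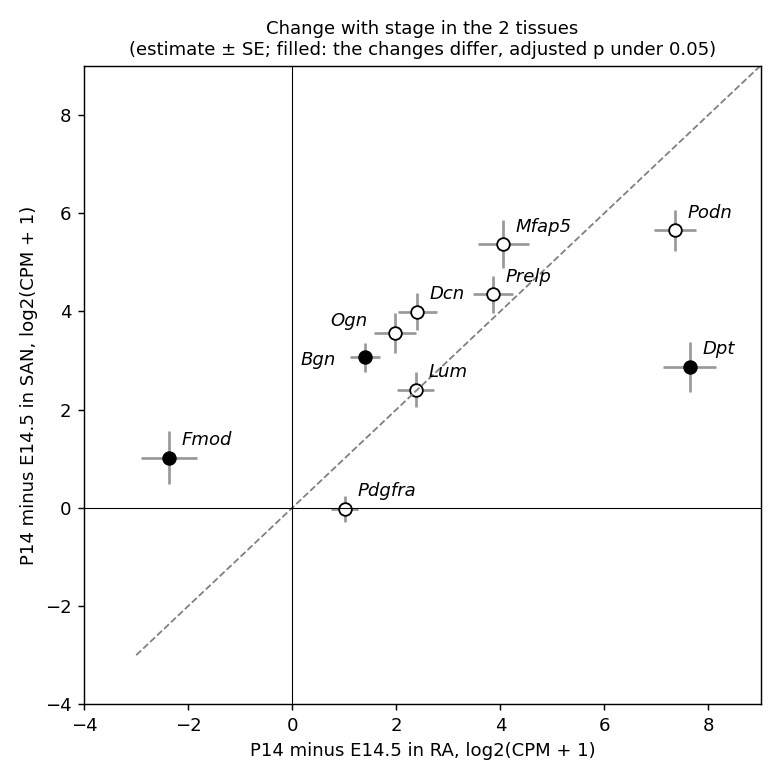
Change from E14.5 to P14 in SAN (vertical) against that in RA (horizontal), both on the log2(CPM + 1) scale, as limma estimates ± SE from 3 libraries per group. Filled points are the 3 genes whose changes differed between the tissues, and the dashed line marks equal change. Fmod lies above 0 in SAN and below 0 in RA, and Dpt lies far to the right of the line.

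Levels were also put in order over the 6 groups, and the steps between neighbours that passed were few. For Dcn, Ogn and Mfap5 one step in the order passed, the one between the E14.5 groups and the later groups. For Prelp it lay between RA P14 and RA P4 (1.89), for Fmod between RA E14.5 and the later RA groups (2.37), and for Bgn between SAN E14.5 and RA E14.5 (1.05). Podn had 2 such steps, between RA P14 and RA P4 and between SAN P14 and SAN P4. Pdgfra had one between SAN P14 and SAN P4 (0.96). Lum had steps between RA P14 and SAN E14.5 and between SAN E14.5 and RA E14.5. Dpt had steps between SAN P4 and SAN E14.5 and between SAN E14.5 and RA E14.5.

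Over the 18 libraries, levels of Dcn and Ogn followed each other most closely (Pearson r = 0.96 on the log2 scale), and Bgn and Ogn had r = 0.91. Fmod and Podn had the lowest value (r = −0.57). These libraries share stages and tissues, so the coefficients only describe the pattern. By the same measure over 11688 genes, the closest genes outside the 10 were Pid1, Ablim3 and Adamts2 for Dcn (r = 0.95, 0.95 and 0.94). For Lum they were Col6a1, Pmp22 and Col3a1 (0.94, 0.93 and 0.93), of which 2 encode collagen chains, and for Bgn Ifitm3, Ehd2 and Kcnt2 (0.96, 0.94 and 0.94). For Ogn they were Abca9, Adamts2 and Itih5 (0.95, 0.95 and 0.93), so Adamts2, which trims procollagen, stood near both Dcn and Ogn.

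For Fmod the closest were Odz3, Rps6ka6 and Gpr22 (r = 0.92, 0.92 and 0.91), for Prelp Csdc2, Rassf3 and Cd36 (0.98, 0.96 and 0.96), and for Dpt Abca8a, Ebf2 and Pi15 (0.94, 0.94 and 0.94). For Podn they were Mylk4, Mb and Kcnip2 (0.96, 0.95 and 0.95), of which Mb encodes the muscle oxygen store myoglobin and Kcnip2 a potassium channel subunit of myocytes. For Mfap5 they were Pcsk6, Tppp3 and Ltbp4 (0.97, 0.96 and 0.95), the last a protein of microfibrils. Pdgfra had the weakest partners, Cxcl12, Smoc2 and Egfr (0.87, 0.85 and 0.83).

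Of the other small leucine-rich proteoglycans listed, 9 had a row and 7 were tested. Aspn (asporin) and Ecm2, which lie beside Ogn in the order Ecm2, Aspn, Omd, Ogn, rose in both tissues. Aspn went from a mean of 26.1 to 228 CPM in SAN (3.11 ± 0.48, adjusted p = 5.1e-05) and from 10.3 to 118 CPM in RA (3.45 ± 0.48, adjusted p = 1.9e-05) between E14.5 and P14. Ecm2 rose by 2.63 ± 0.42 and 2.22 ± 0.42. Omd (osteomodulin) rose in SAN from 0.835 to 3.73 CPM (adjusted p = 0.040). None of the 7 was called between the tissues over the mean of the 3 stages by limma or edgeR, 1 was called by DESeq2, and 2 had an unadjusted limma p under 0.05. Optc, the gene on the other side of Prelp, averaged 1.35 to 3.54 CPM in the SAN groups and 0 to 0.623 CPM in the RA groups.

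Among the large proteoglycans Ncan was far higher in SAN after birth. Ncan (neurocan), a hyaluronan-binding proteoglycan best known from brain, stood at a mean of 247 CPM in SAN and 6.33 CPM in RA at P4 and at 243 and 2.96 CPM at P14. Its SAN minus RA difference was 5.63 ± 0.79 (adjusted p = 5.0e-05) and 5.90 ± 0.79 (adjusted p = 5.0e-05). Of the 11 tested genes of this list, 3 were higher in SAN over the mean of the 3 stages and none was lower, with Cspg4 at 1.70 and Spock1 at 1.16 beside Ncan. Spock1 fell in SAN from 26.1 to 0.277 CPM by P14.

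Among 10 cell surface proteoglycans, Gpc3 was higher in SAN (1.38 ± 0.23) and Tgfbr3 and Sdc1 were lower over the mean of the 3 stages. Tgfbr3, a co-receptor for transforming growth factor beta, averaged 26.1 CPM in SAN and 269 CPM in RA at E14.5 (−3.41 ± 0.28, adjusted p = 6.7e-08). It rose in SAN to 139 CPM by P14. Gpc3 fell from 609 to 48.7 CPM in SAN and from 434 to 21.5 CPM in RA between E14.5 and P14, while Gpc6 rose in both (2.35 ± 0.48 and 2.55 ± 0.48).

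The enzymes that build the sugar chains were called in both directions in SAN. Of 20 linker, chondroitin and dermatan sulfate enzymes, 3 rose and 3 fell in SAN from E14.5 to P14 (9.74% and 14.5% of all genes), among them Ust (2.02 ± 0.45) and Dsel (1.52 ± 0.34) higher and Chst11 (−1.85 ± 0.41) lower. In RA none of the 20 was called by limma, edgeR or DESeq2 and none had an unadjusted limma p under 0.05. Scaled on sarcomere genes 4 were lower in RA, where 635 of all genes were called higher and 7919 lower. Of 6 keratan sulfate enzymes, B4galt1 rose in SAN (0.53 ± 0.18, adjusted p = 0.037) and was higher in SAN than in RA at P14 (217 against 139 CPM), but not with equal upper quartiles. The median change of these lists from E14.5 to P14 was −0.03 and −0.35 in SAN.

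Most of the fibrillar collagen genes and their enzymes also rose with stage in SAN. Of 18 genes, 13 rose in SAN and 10 in RA from E14.5 to P14 (9.74% and 5.99% of all genes). None fell in either tissue (14.5% and 16.7% of all genes). Scaled on sarcomere genes, 7 rose and 2 fell in RA, where 635 of all genes were called higher and 7919 lower. Col14a1, a collagen on fibril surfaces, rose from 43.2 to 602 CPM in SAN (3.87 ± 0.37) and from 29.3 to 312 CPM in RA (3.35 ± 0.37). Col3a1 rose by 2.95 ± 0.34 and 2.36 ± 0.34. At P14 4 of the 18 were higher in SAN, including Col1a2 at 4608 against 1537 CPM (1.59 ± 0.25, adjusted p = 0.00036).

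In the list of microfibril and elastic fibre genes to which Mfap5 belongs, 8 of 18 rose and 2 fell in SAN (9.74% and 14.5% of all genes). In RA 4 rose and 3 fell (5.99% and 16.7% of all genes). Scaled on sarcomere genes 4 rose and 10 fell in RA, a scaling in which 635 of all genes were called higher and 7919 lower. Eln (elastin) rose from 8.78 to 703 CPM in SAN (6.21 ± 0.64) and from 3.80 to 186 CPM in RA (5.29 ± 0.64). Fbn2, the fibrillin of embryonic tissue, fell in both, from 1211 to 184 CPM and from 427 to 39.9 CPM, and was higher in SAN at each stage (1.49 ± 0.18, 0.91 ± 0.18 and 2.17 ± 0.18). Of the 6 genes listed with Pdgfra, Pdgfrb, the other receptor, rose in SAN from 45.7 to 159 CPM (adjusted p = 0.00044). Pdgfrl rose in both tissues, and Pdgfb was higher in SAN over the mean of the 3 stages (1.13 ± 0.35, adjusted p = 0.040).

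The E12.5 set compares nodes with and without the tamoxifen-activated Cre, which is meant to delete floxed Isl1, the gene of a transcription factor of the node. Cre activity and Isl1 deletion go together in this design, so their effects cannot be told apart. Isl1 itself stood at 67.4, 88.5, 47.8 and 83.2 CPM in the CreNeg libraries and at 71.7, 2.85 and 53.9 CPM in the libraries labelled CrePos. Only CrePos replicate 2 was low, and its title marks it as an outlier, so it was left out of the fit. Reads over the whole gene need not fall when part of it is deleted, and the levels therefore do not check the label of CrePos 1 and 3. Hcn4 averaged 225 CPM in CreNeg and 94.4 CPM in CrePos 1 and 3. Relative to full scaling to library size, CrePos 1 and 3 totalled 0.746 and 0.632, and the CreNeg libraries 0.776 to 0.890. The CPM levels of this set and the main test were not corrected for these lower CrePos totals.

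Pdgfra was lower in the libraries labelled CrePos. It stood at 116, 137, 145 and 145 CPM in CreNeg and at 46.1, 42.3 and 27.0 CPM in CrePos 1, 2 and 3, so that all 3 CrePos libraries, the one marked as an outlier included, were below all 4 CreNeg libraries. The CrePos minus CreNeg difference was −1.91 ± 0.25 (adjusted p = 0.00077, CrePos 1 and 3 against 4 CreNeg). With CrePos 2 included it was −1.82 (adjusted p = 0.00067). The median of all genes was −0.42 in this comparison and −0.03 with equal upper quartiles, where the Pdgfra difference was −1.47 (adjusted p = 0.0064). In edgeR it was −1.48 (adjusted p = 0.028). Without CrePos 3 the CrePos arm was 1 library, assumed to vary like CreNeg, and the difference was −1.53 (adjusted p = 0.038).

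Of the 9 tested genes 2 were lower and none was higher, where 0.678% of all 14595 genes tested were called higher and 1.32% lower. Under equal upper quartiles the calls over all genes were 165 higher and 73 lower, in place of 99 and 193. The second lower gene, Bgn, stood at 143, 90.4, 99.7 and 91.7 CPM in CreNeg and at 51.1, 118 and 49.5 CPM in CrePos, and CrePos 2 lay within the CreNeg range. Its difference was −1.04 ± 0.25 (adjusted p = 0.043) and passed no longer with equal upper quartiles (−0.59, adjusted p = 0.17), in edgeR (−0.57, adjusted p = 0.26), with CrePos 2 (−0.63, adjusted p = 0.22), or without any one of the 6 libraries (at most 0.49, when CrePos 3 was left out and 1 CrePos library remained).

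**Figure D4:**
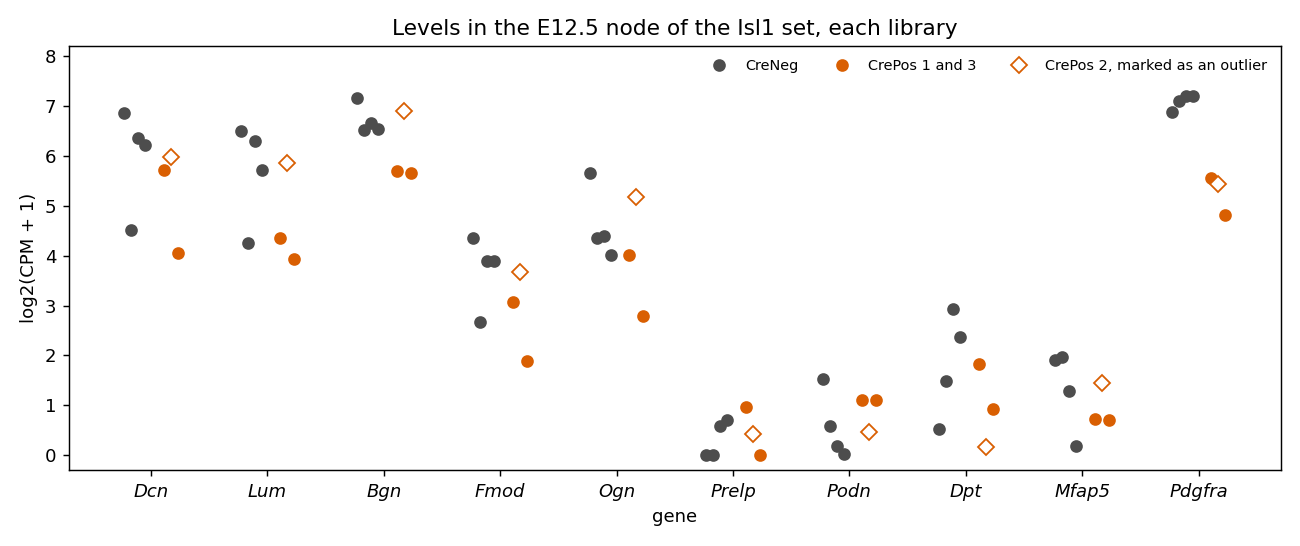
Level of each gene in every library of the E12.5 set as log2(CPM + 1), with CreNeg in grey, CrePos 1 and 3 in orange and CrePos 2, marked as an outlier by its title, as an open diamond. For Pdgfra all CrePos libraries lie below all CreNeg libraries. For Dcn, Lum, Fmod, Ogn, Prelp, Podn, Dpt and Mfap5 CreNeg overlaps CrePos 1 and 3.

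The other proteoglycans of the set were spread widely within CreNeg. Dcn stood at 115, 21.7, 80.8 and 73.0 CPM in CreNeg and at 51.9, 62.3 and 15.6 CPM in CrePos. Lum stood at 89.2, 18.1, 77.4 and 51.5 CPM and at 19.3 CPM in CrePos 1, 56.8 CPM in CrePos 2 and less than either in CrePos 3. CreNeg 2 was low for both, and without it Dcn differed by −1.59 (adjusted p = 0.046) and Lum by −2.03 (adjusted p = 0.0022), against −1.10 (adjusted p = 0.25) and −1.56 (adjusted p = 0.11) with it. With CreNeg 2 kept, Lum passed in DESeq2 (−1.32, adjusted p = 0.034) and scaled on sarcomere genes (−1.88, adjusted p = 0.033), and did not in edgeR (−1.32, adjusted p = 0.32) or with equal upper quartiles (−1.13, adjusted p = 0.33). Fmod stood at 5.40 to 19.3 CPM in CreNeg and 2.72 to 11.7 CPM in CrePos, and Ogn at 15.1 to 49.4 and 5.96 to 35.1 CPM. Podn, Prelp and Mfap5 were at or below 2.92 CPM in all 7 libraries, and Dpt was at or below 6.63 CPM.

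Some collagen and microfibril genes were also lower, calls that depended on the scaling and the test. Of 18 collagen genes and enzymes, 5 were lower in CrePos and none was higher, among them Col1a2 at a mean of 223 against 928 CPM (adjusted p = 0.0035) and Col1a1 at 267 against 871 CPM. Of 18 microfibril and elastic fibre genes, 5 were lower, including Mfap4 at 70.0 against 227 CPM. With equal upper quartiles only 1 gene of the 2 lists together passed as lower, and edgeR called none of either list, while DESeq2 called 5 of each in either direction, and 12 and 14 had an unadjusted limma p under 0.05. The medians of these lists were −0.98 and −1.10, against −0.42 over all genes. Fibroblast markers outside the 10 genes were lower for 3 of 17 tested (1 with equal upper quartiles), and their sum was 1562 to 3964 CPM in the 3 CrePos libraries and 2698 to 5470 CPM in CreNeg. In either direction edgeR called none of these markers and DESeq2 3, and 9 had an unadjusted limma p under 0.05. The part of fibroblast number in the lower Pdgfra level was not tested.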

How the data were processed

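Total RNA of laser-captured mouse SAN and RA was sequenced in 25 libraries. Per the submitters' processing notes, TopHat2 2.0.6, edgeR and build mm8 were used. The deposited values are a normalized signal per gene: in every library 100% of values were whole multiples of 1 step within 0.1 of a read, so whole reads were recovered. Values of every library were divided by 24.3 to give CPM, without rescaling to each library's total. The test was limma 3.58.1 with a mean-variance trend on log2(CPM + 1), over 18 libraries with 6 group means, and over 4 CreNeg against CrePos 1 and 3. Genes with at least 1 CPM in 3 libraries (2 in the E12.5 set) were tested, 17568 and 14595 genes. Alternatives were edgeR 4.0.16 and DESeq2 1.42.0 on recovered reads, a pseudocount of 0.25, no filter, 2 scalings, the compared groups alone, a replicate block and each library left out. Scripts were tested on simulated data. Replicates differed by more than counting noise (chi-square over degrees of freedom at least 8.42). Amplified reads are not independent molecules, so floors cover counting error only. The design named the 10 genes in each comparison, up to 3 called genes per direction of each list and the 3 closest genes. The members and lists were chosen with earlier results of these data known. Promoter sequences are RefSeq's (GRCm38.p6), and no coordinates were converted.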

Additional observations from a re-analysis of the deposited data

Results flagged for a closer look

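The change from E14.5 to P14 differed between SAN and RA for 3 of the 10 genes by the test of the difference itself. Fmod changed by 3.39 more in SAN, on the log2 scale. It fell in RA (−2.37, adjusted p = 0.0025), and its change in SAN did not pass (1.02, adjusted p = 0.18). Bgn changed by 1.66 more in SAN. Dpt changed by −4.77, with 27.0 to 63.3 CPM in SAN and at most 1.58 CPM in RA at E14.5. In the E12.5 set Ogn stood at 49.4 CPM in CreNeg replicate 1, apart from 15.1 to 20.1 CPM in the other 3 CreNeg libraries, a gap of 0.855 of the group's range. For normally distributed values, chance sets a library apart in this way in about 1 in 20 groups of 4. The rule was applied to CPM, not to log2 values, and to each of the 10 genes.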

How the results depend on the processing

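The number of the 10 genes called was recomputed under each alternative. It moved from 4 to 2 at E14.5 (SAN against RA) with no filter on low values, from 5 to 3 at P14 with equal upper quartiles, from 4 to 2 for P4 to P14 in SAN on the compared groups alone, and from 3 to 1 in edgeR for the change that differed between tissues. In the E12.5 set it moved from 2 to 1 with no filter, equal upper quartiles, edgeR or CrePos 2 included, and to 6 with the replicate block. There the block rests the difference on CreNeg 1 and 3 against CrePos 1 and 3 and sets CreNeg 2 and 4 aside. Libraries of the same number correlated by −0.0015 and −0.0037 in that set, so they do not behave as pairs. With 1 library left out at a time, the counts ranged from 6 to 6 for the mean difference, 2 to 4 at E14.5, 3 to 4 at P4 and 2 to 5 at P14. For E14.5 to P4, P4 to P14 and E14.5 to P14 they ranged from 6 to 10, 2 to 4 and 8 to 8 in SAN and from 8 to 9, 1 to 2 and 10 to 10 in RA. They ranged from 1 to 4 for the difference in change and from 1 to 3 in the E12.5 set. Of 65 called differences of single genes, 47 passed in every alternative run. No called difference changed sign, while 70 of 2976 values changed sign where neither setting passed. Same-numbered SAN and RA libraries correlated by −0.09 to 0.12 and 3 of 9 matched their own number best, so the numbers were not taken as pairs; apart from the E12.5 set, the block lost Fmod from E14.5 to P4 in SAN (1.79, adjusted p = 0.052) and added Ogn to the difference in change (1.59, adjusted p = 0.043). Depth limits Dpt, Podn, Prelp and Mfap5 before birth, where single libraries hold few reads.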
